A study of Homo sapiens with 18 samples.

Results

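The keratin gene clusters are 2 stretches of the human genome where the genes for keratins, the intermediate filament proteins of epithelial cells, lie side by side. The members described here are all peak summits of 3 histone marks that fall in 2 windows of the hg19 build: chr12:52560000-53360000, which holds the type II keratins and KRT18, and chr17:38800000-39800000, which holds the type I keratins and the keratin-associated proteins. They number 911 of the 947675 summits in the 13 deposited lists, 528 in the type II window and 383 in the type I window.

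ChIP-seq, in which DNA bound to a modified histone is pulled down and sequenced, was run on lung adenocarcinoma lines of human origin, and the 18 samples comprise 13 libraries with a list of summits and 5 inputs that were not analysed here. The first group is the line H2087-LCC, abbreviated LCC. The second, TGFb, is LCC given the cytokine TGF-β1 at 100 nM for 4 days, as the labels state the dose. The third, SO1, is the line H2087-LCC-SO1, whose derivation the labels do not describe, and the fourth is H2030, a separate line. LCC, TGFb and SO1 shared a medium with hydrocortisone, insulin and epidermal growth factor, and H2030 grew without these additions, so line and medium cannot be told apart there. LCC H3K27ac had 2 biological replicates and every other combination of group and mark had 1 library. No p-value can therefore be given, and the difference between the 2 LCC replicates is the only measure of experimental error.

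Keratins work in pairs: a type I chain binds a type II chain, and the pairs assemble into filaments. Simple epithelia such as those of the airway make KRT7, KRT8, KRT18 and KRT19, the basal cells of stratified epithelia make KRT5 and KRT14, and the hair follicle makes the hair keratins together with the keratin-associated proteins that crosslink them. H3K27ac is found at active promoters and enhancers, H3K4me1 at enhancers and promoter flanks, and H3K4me3 at promoters.

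The order of the genes came from RefSeq, whose table is of the GRCh38.p14 build. Since no position was converted between builds, elements are named by their hg19 position and are not assigned to genes. The chromosome 12 cluster holds 27 keratin genes, with KRT80 and KRT7 at its first end and KRT8 followed by KRT18 at its last. The chromosome 17 cluster holds 28 keratin genes and 34 genes of keratin-associated proteins. It runs from KRT222 and KRT24 through the root sheath keratins KRT25 to KRT28, KRT10, KRT12, KRT20 and KRT23, the keratin-associated proteins and the hair keratins to KRT13, KRT15, KRT19, KRT9, KRT14, KRT16 and KRT17. SMARCE1, a chromatin remodelling subunit and no keratin, neighbours the KRT222 end.

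Many promoters of these genes share a sequence feature that the choice of windows did not use. Promoters are taken as 250 bases before to 50 bases after the gene start, and 67 of 88 listed genes have an entry in the RefSeq table. The TATA motif TATAAA, on either strand, stood in 49 of the 67 (73.1%) against 12% of all 27305 promoters in the table. On the gene's own strand with its first base 45 to 26 bases before the start, the usual place of a TATA box, it stood in 31 of 67 (46.3%) against 2.58% of all promoters. The GC box GGGCGG stood in 6 (8.96%) against 44.6% of all promoters. The median number of CpG dinucleotides was 2.00 against 14.0, and the median GC content was 44.0% against 58.3%. Promoters in this table from the keratin clusters were thus mostly poor in CpG and rich in TATA motifs.

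By list, TATAAA was found in 29 of 33 promoters of keratin-associated proteins (87.9%), 10 of 14 hair keratins (71.4%), 6 of 8 root sheath keratins (75.0%) and 4 of 9 suprabasal, corneal and mucosal keratins (44.4%). Neither of the 2 simple epithelial entries (KRT8 and KRT20) nor the 1 basal entry (KRT5) held it. These lists have 7 and 8 genes, so most simple epithelial and basal keratins had no entry and are not described by these shares. TGANTCA, the motif of AP-1 factors, stood in 4 of 67 (5.97% against 7.76%), and CAGACA in 13 (19.4% against 16.8%), both on either strand and near the share of all promoters. The 4 sequences printed here show the range, from a suprabasal, a hair, a root sheath and a basal keratin, each 5′ to 3′ on the strand of its gene with the searched motifs in capitals, TGTCTG being CAGACA read on the other strand. Their coordinates are of GRCh38.p14 and are not to be set beside the hg19 positions of the summits.
KRT10, chr17:40822565-40822864, minus strand: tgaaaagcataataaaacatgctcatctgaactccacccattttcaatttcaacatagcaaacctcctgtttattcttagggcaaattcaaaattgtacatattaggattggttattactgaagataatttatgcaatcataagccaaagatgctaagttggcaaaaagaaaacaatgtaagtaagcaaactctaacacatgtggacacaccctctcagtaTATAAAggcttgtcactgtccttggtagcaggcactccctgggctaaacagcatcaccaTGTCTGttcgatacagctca
KRT31, chr17:41397559-41397858, minus strand: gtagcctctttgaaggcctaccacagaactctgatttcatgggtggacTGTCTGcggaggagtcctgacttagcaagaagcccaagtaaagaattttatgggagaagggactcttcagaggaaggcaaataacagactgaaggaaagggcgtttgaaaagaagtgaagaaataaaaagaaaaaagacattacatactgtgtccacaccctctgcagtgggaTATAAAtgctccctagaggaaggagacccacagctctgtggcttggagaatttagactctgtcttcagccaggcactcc
KRT71, chr12:52553096-52553395, minus strand: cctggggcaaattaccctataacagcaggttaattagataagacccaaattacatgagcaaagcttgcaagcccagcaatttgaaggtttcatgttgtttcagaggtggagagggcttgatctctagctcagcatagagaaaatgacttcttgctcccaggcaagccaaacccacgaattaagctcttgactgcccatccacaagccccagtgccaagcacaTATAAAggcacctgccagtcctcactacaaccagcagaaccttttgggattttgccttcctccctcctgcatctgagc
KRT5, chr12:52520345-52520644, minus strand: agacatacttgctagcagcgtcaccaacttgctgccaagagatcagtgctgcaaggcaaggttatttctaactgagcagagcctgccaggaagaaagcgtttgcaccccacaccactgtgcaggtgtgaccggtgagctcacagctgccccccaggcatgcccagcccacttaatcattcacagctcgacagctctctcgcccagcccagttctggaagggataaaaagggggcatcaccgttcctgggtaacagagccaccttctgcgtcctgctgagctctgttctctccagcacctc

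KRT10 is the type I keratin of differentiating epidermis, KRT31 a hair keratin, KRT71 a keratin of the inner root sheath and KRT5 the type II keratin of basal cells. In KRT10 and KRT31 TATAAA begins 29 bases before the start and in KRT71 28 bases before it. The KRT5 sequence held none of the 4 motifs searched and 7 CpG dinucleotides, which says only that these letters are not in this window. The sequences under the summits themselves are not printed.

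The lists hold a position and a score for each peak. The score is read as −log10 of the peak's p or q (which of them was not settled), so it rises with sequencing depth, which is unknown. It ranks peaks within a list, and scores of different lists are set side by side here without reading a change from them. A summit is 1 point in a peak of unknown width, so a summit that moves within a wide peak can look like a loss and a gain.

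**Figure D1:**
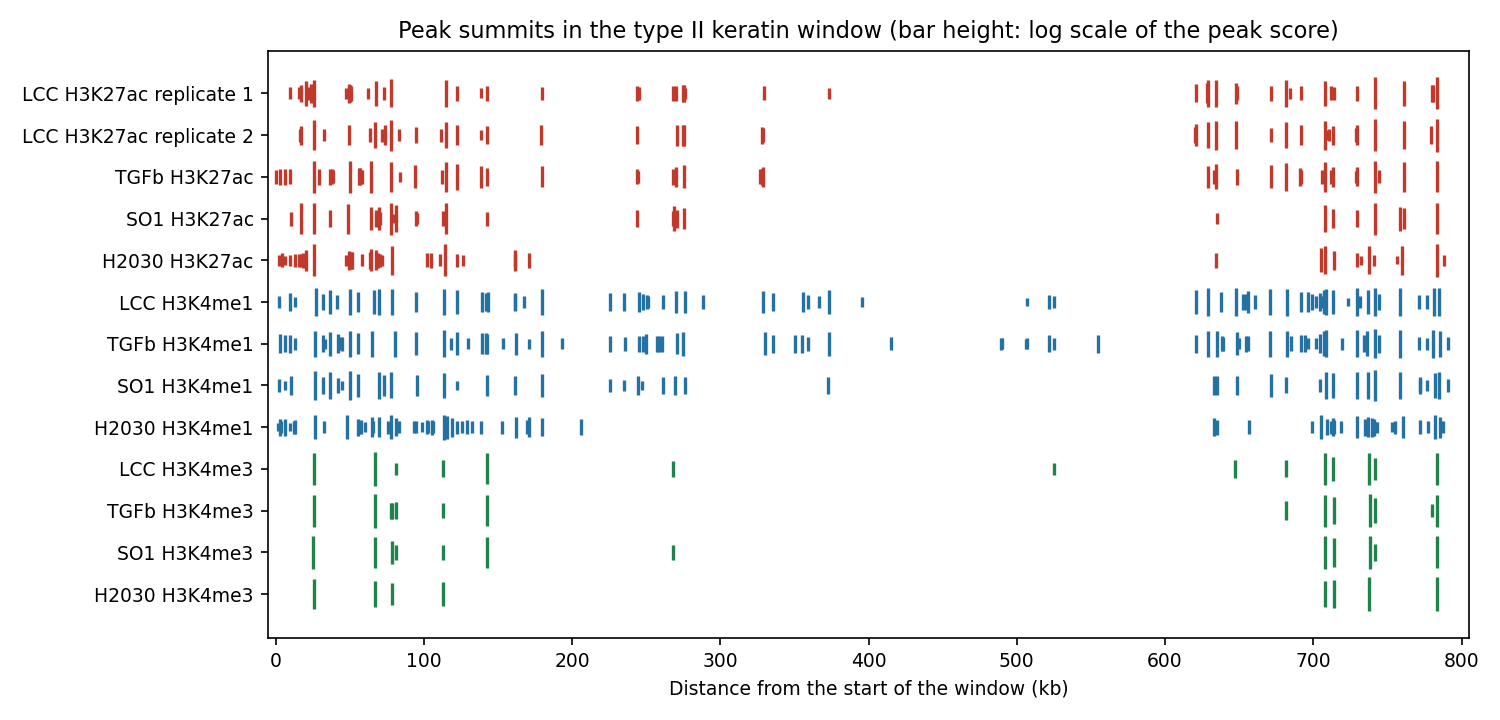
Summits in the type II window, by distance from its start in kb (x axis) and library (rows); the height of each bar follows the log of the peak score, on 1 scale for all rows. The marks stand at both ends of the window, and the middle holds few summits.

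The type II window held more H3K27ac than a typical stretch of its length in each library. LCC had 49 and 42 H3K27ac summits in its replicates, TGFb 49, SO1 30 and H2030 43, where the median of all 800 kb stretches was 11, 14, 15, 13 and 10 in the same lists. H3K4me1 gave 72 summits in LCC, 83 in TGFb, 45 in SO1 and 67 in H2030, against medians of 37, 37, 33 and 28. H3K4me3 gave 14, 14, 12 and 8, against 5, 6, 6 and 5. SO1 had the fewest H3K27ac and H3K4me1 summits in this window, and H2030 the fewest H3K4me3 summits.

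The type I window was closer to the median of 1 Mb stretches. H3K27ac gave 20 and 30 summits in the LCC replicates, 29 in TGFb, 26 in SO1 and 25 in H2030, against medians of 14, 17, 20, 16 and 13. H3K4me1 gave 54, 60, 56 and 44 against 46, 47, 41 and 37. H3K4me3 gave 12, 11, 13 and 3 in LCC, TGFb, SO1 and H2030 against 7 in each list. Here SO1 stood near LCC, and H2030 had 3 H3K4me3 summits where the H2087 lines had 11 to 13.

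At the window edges, the outermost H3K27ac summit of the type II window lay at 52560520 (TGFb, score 6.88) and the nearest outside it at 52559630 (H2030, 8.99). Past its end, the nearest H3K4me3 summit outside was at 53399687 (LCC, 378), beyond the last inside at 53343224 (SO1, 357). The first H3K4me3 summit inside the type I window was at 38803786 (H2030, 526) and the nearest before it at 38776560 (TGFb, 13). The last inside was at 39735829 (SO1, 6.49) and the next outside at 39804806 (SO1, 104).

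Summits of 1 mark from all libraries were merged within 1 kb into elements, which gave 117 H3K27ac, 196 H3K4me1 and 29 H3K4me3 elements in the windows. Of the 29 H3K4me3 elements, the promoter mark, 16 stood in the type II window. The type II element at chr12:53343181-53343224, the last before the KRT18 end of the window, had H3K4me3 scores of 368 in LCC, 360 in TGFb, 357 in SO1 and 576 in H2030. H3K27ac within 1 kb scored 351 and 429 in the LCC replicates, 296 in TGFb, 340 in SO1 and 442 in H2030. Both marks were thus present there in all 4 groups.

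Before it, the element at chr12:53297513-53298581 had H3K4me3 scores of 386, 441, 388 and 504 in LCC, TGFb, SO1 and H2030. The strongest nearby H3K27ac summit differed in place: at chr12:53300881-53301847 it scored 357 and 397 in the LCC replicates, 351 in TGFb and 368 in SO1, but 3.48 in H2030, whose own summit lay at 53297582 with a score of 161. H3K4me1 at chr12:53301208-53303046 scored 167, 182, 258 and 14.0, the highest H3K4me1 summit of the window in LCC, TGFb and SO1. A weaker H3K4me3 element, chr12:53301395-53301929, overlapped the H3K27ac element at chr12:53300881-53301847. It scored 77.1 or less in LCC, TGFb and SO1 and had no H2030 summit. The 3 H2087 groups thus had their highest nearby H3K27ac at this weaker H3K4me3 element, beyond the stronger one toward KRT18. H2030 had its own within the stronger element.

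The next 2 elements toward the middle were also marked in all groups. H3K4me3 at chr12:53267864-53267899 scored 329 in LCC, 381 in TGFb, 401 in SO1 and 107 in H2030. At chr12:53273622-53273704 it scored 75.0, 134, 175 and 136. At the other end of the window, toward KRT80 and KRT7, chr12:52585464-52585603 scored 339, 365, 473 and 278, and chr12:52627155-52627292 scored 469, 551, 307 and 97.2. KRT7 encodes a type II keratin of simple and glandular epithelia. These elements at both ends held the high H3K4me3 scores of the window, and every H3K4me3 score between 52702293 and 53267864 was 21.0 or less.

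The element at chr12:52702251-52702293 stood apart from these. It scored 295 in LCC, 303 in TGFb and 264 in SO1, and the nearest H2030 H3K4me3 summit was 29519 bp away. H3K27ac there scored 7.40 and 19.3 in the LCC replicates, 18.9 in TGFb and 7.12 in SO1. By rank, the H3K4me3 scores were above 56.8%, 57.8% and 53.9% of the LCC, TGFb and SO1 lists. The H3K27ac scores were above 33.4% and 57.9% of the LCC replicate lists, 48.2% of TGFb and 19.7% of SO1. The element was thus marked by H3K4me3 and H3K27ac in the H2087 groups, with no H2030 summit of either mark.

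**Figure D2:**
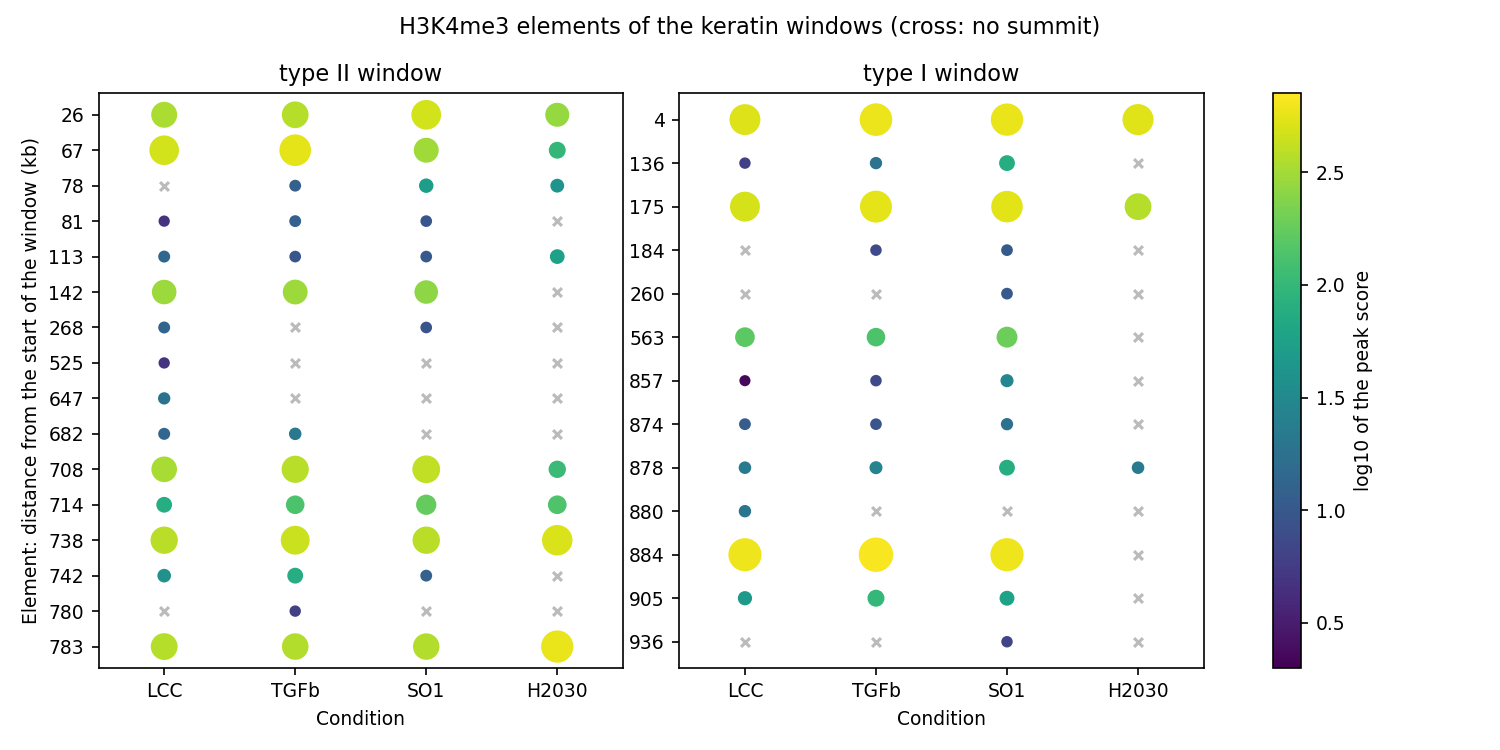
H3K4me3 elements of each window (rows, labelled by distance from the window start in kb) in the 4 groups; point size and colour follow the peak score, and a cross stands for no summit. Nearly all elements with a high score are shared by LCC, TGFb and SO1, and 3 of them lack a summit in H2030.

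Along the type I window, 2 H3K4me3 elements near its first end were marked in every group. At chr17:38803786-38803901, the end where SMARCE1 and KRT222 are neighbours, LCC scored 520, TGFb 590, SO1 577 and H2030 526. At chr17:38975027-38975077 the scores were 481, 562, 545 and 367. A weaker one, chr17:39677751-39677832, scored 21.9, 28.1, 76.2 and 22.0. These 3 were all the H3K4me3 that H2030 had in this window.

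The highest H3K4me3 score of the window was at chr17:39684032-39684132, with 611 in LCC, 670 in TGFb and 615 in SO1, above 99.5%, 99.5% and 91.4% of their lists. H2030 had no summit in this element, and its nearest, the summit at chr17:39677751-39677832, was 6281 bp away. Over the genome 14.3% of H3K4me3 elements had summits in LCC, TGFb and SO1 and none in H2030, and in the type II window 18.8%. In the type I window 6 of the 13 elements (46.2%) were of this kind. The next highest in LCC were chr17:39362830-39362922 with 160, 134 and 191 in LCC, TGFb and SO1, where the nearest H2030 summit was 314829 bp away, and chr17:39703987-39705101 with 47.8, 99.1 and 59.1, where it was 26236 bp away. The other 3 were weaker: chr17:38935971-38936022 scored 6.10, 18.5 and 76.5, chr17:39656696-39656846 scored 2.27, 7.45 and 29.5, and chr17:39672992-39674909 scored 11.4, 9.21 and 18. By gene order the last end of the window is the side where KRT13, KRT15 and KRT19 precede KRT9, KRT14, KRT16 and KRT17, and which gene these elements belong to was not determined. H3K27ac and H3K4me1 were not absent from H2030 there: near chr17:39703987-39705101 it scored 58.7 for H3K27ac and 29.2 for H3K4me1.

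**Figure D3:**
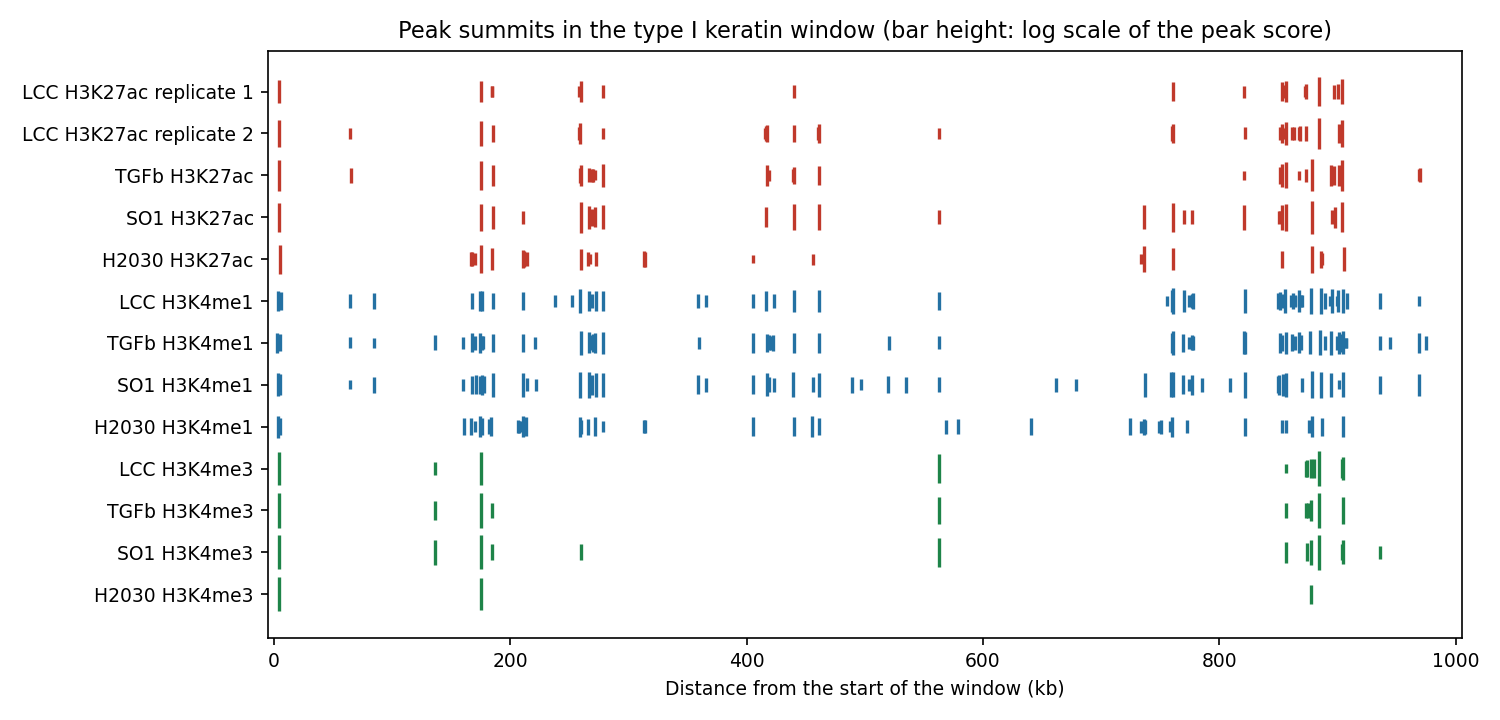
Summits in the type I window, drawn as for the type II window, by distance from its start in kb. The middle of the window holds few summits of H3K27ac and H3K4me3, and the H2030 H3K4me3 row has 3 summits.

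Long stretches of both windows lay without marks. In the type II window no library had H3K27ac between 52933334 and 53180176 (247 kb), and no library had any mark between 52975437 and 53049375 (73.9 kb). H2030 had no summit of any mark between 52766290 and 53193285 (427 kb), where LCC had 46 over its 4 libraries, or 37 and 33 with only the first or second H3K27ac replicate, TGFb 36 and SO1 14. SO1 had none between 52932753 and 53193313 (261 kb), where LCC had 15, or 12 and 11 with 1 H3K27ac replicate, TGFb 13 and H2030 1. The empty middle was longest in H2030, shorter in SO1 and shortest in TGFb, where it was 73.9 kb, LCC lying between SO1 and TGFb at 111 kb.

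In the type I window no library had H3K27ac between 39362875 and 39533625 (171 kb) or any mark between 39379186 and 39440708 (61.5 kb). No H3K4me3 summit lay between 39059723 and 39362830 (303 kb). LCC was without marks over 193 kb from 39362946 and TGFb over 197 kb from 39363010, while SO1 had 4 and H2030 11 summits inside the LCC stretch. The longest empty stretch of H2030 was elsewhere, between 38805129 and 38960307 (155 kb).

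Groups were then compared with LCC. A kept summit is one with a counterpart in the other list at 500 bp or less. An element was called lost when every LCC library of the mark had a summit in it and the other group had none within 10 kb, and gained when the group had one and no LCC library did within 10 kb. The 3 comparisons share the LCC libraries. LCC H3K4me3 summits were weaker in the windows than in the whole list. Their median score was 56.3 in the type II and 20.8 in the type I window, against 189. Genome shares of H3K4me3 are thus taken over stronger summits, and shares at equal score were not computed. Intervals are Wilson 95% intervals, which cover counting error only, and neighbouring elements are not independent. The reproducibility of the measure is given by the LCC replicates: 62.3% of replicate 1 H3K27ac summits in the windows had one of replicate 2 within 500 bp, and 59.7% the other way, against 69.8% and 56.1% over the genome.

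**Figure D4:**
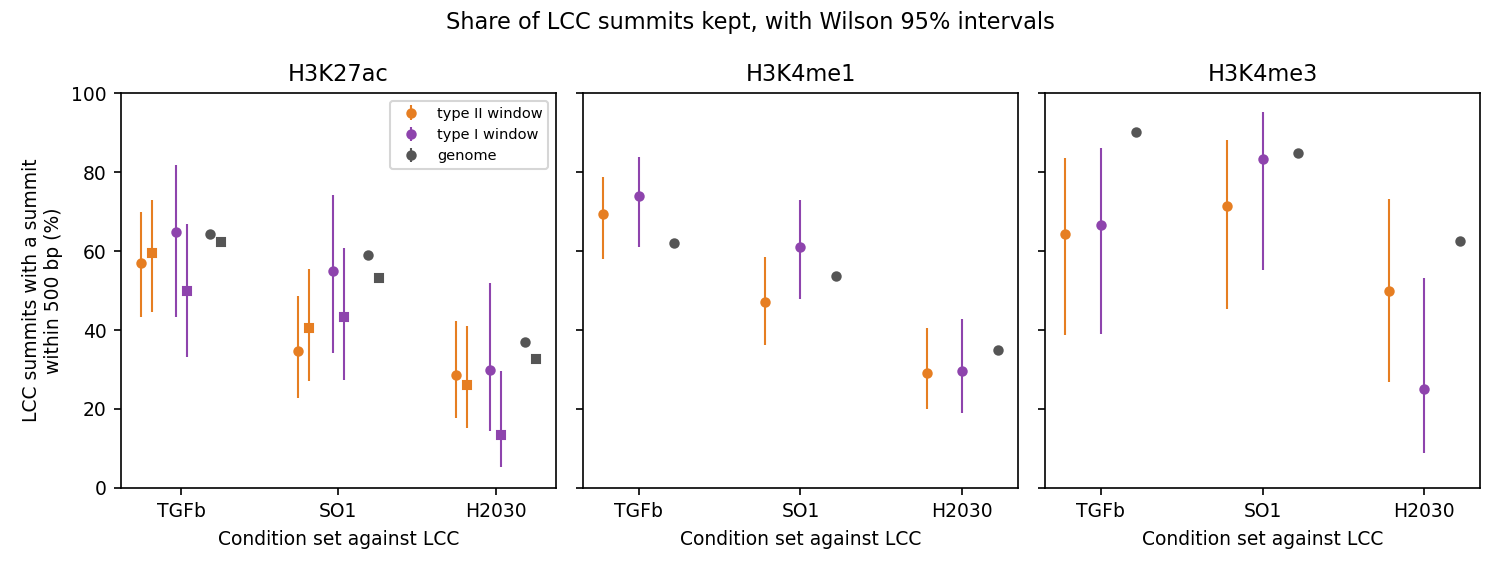
Share of LCC summits with a summit of the other group within 500 bp (y axis, %) in the type II window, the type I window and the genome, with Wilson 95% intervals; circles and squares are the 2 LCC H3K27ac replicates. H3K4me3 shares in the windows lie below the genome value in each group, with wide intervals, and the LCC H3K4me3 summits of the windows have lower median scores than the list.

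Few elements of the keratin windows were gained or lost after TGF-β1 treatment at the 10 kb distance. Of 117 H3K27ac elements 1 was gained (0.855%, 0.151 to 4.68), where 6.89% of all H3K27ac elements of the genome were gained, and 1 was lost (0.855%) against 1.03%. H3K4me1 elements were gained 7 times of 196 (3.57%) against 3.30% and lost 3 times (1.53%) against 3.06%. H3K4me3 elements were gained 0 times of 29, where 6.52% of the genome's were, and lost 3 times (10.3%, 3.58 to 26.4) against 2.08%, all 3 of them weak in LCC, with scores of 18.4, 12.9 and 4.93. The share of gained H3K27ac elements depended on LCC replicate 2: without it the share was 6.09% in the windows and 13.5% over the genome. It also depended on the distance. When LCC had to lack a summit only in the element itself, 13.7% of type II and 15.9% of type I elements were gained. That was near the 16.6% over the genome.

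The single H3K27ac loss in TGFb was chr17:39560127-39561015, which scored 21.2 and 18.1 in the LCC replicates, 200 in SO1 and 40.2 in H2030. Of the LCC summits in the windows TGFb kept 57.5% ± 2.73 for H3K27ac (SD, n = 2 LCC replicates) against 63.4% ± 1.36 over the genome, 71.4% for H3K4me1 against 62.1%, and 65.4% (46.2 to 80.6) for H3K4me3 against 90.3%. The H3K4me3 value moved to 84.6% at a distance of 1000 bp, where no genome share was computed.

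The place of a summit could shift between LCC and TGFb without a call. At chr12:52627330-52627617 H3K27ac scored 92.7 and 97.4 in the LCC replicates and had no TGFb summit, while TGFb had a summit of score 367 at 52624615. At chr17:39684199-39684308 the LCC replicates scored 156 and 237 and TGFb had none, its H3K27ac lying at chr17:39678324-39678515 with 370, as did that of SO1 with 395 and H2030 with 120. Since only the top of each peak is deposited, a broad peak with a different top and a different peak cannot be told apart.

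At the 10 kb distance, SO1 losses against LCC stood in the type II window and its gains in the type I window, apart from 1 element. In the type II window 7 of 73 H3K27ac elements were lost (9.59%, 4.72 to 18.5) and none was gained, while in the type I window none of 44 was lost and 3 were gained (6.82%, 2.35 to 18.2). Over the genome 2.66% of H3K27ac elements were lost in SO1 and 6.24% gained, so the type I gains were near the genome share. Of H3K4me1 elements 12 of 112 were lost (10.7%) and 0 gained in the type II window, and 1 of 84 was lost and 9 gained (10.7%) in the type I window, against 5.84% lost and 4.21% gained over the genome. H3K4me3 lost 3 of 16 in the type II window and gained 2 of 13 in the type I window, against 4.07% lost and 8.77% gained. Without LCC replicate 1, 10.4% of type II and 4.44% of type I H3K27ac elements were lost against 6.71% over the genome, and 0 and 6.67% gained against 7.24%. Without replicate 2, 12.3% and 0 were lost against 4.44%, and 2.74% and 14.3% gained against 11.2%. The type II loss was thus nearer the genome share without replicate 1. The split was not complete when the lacking side needed no summit only in the element itself. SO1 then lost 16.4% of type II and 6.82% of type I H3K27ac elements against 6.24% over the genome, and gained 6.85% and 20.5% against 12.5%. For H3K4me1 it lost 26.8% and 13.1% against 18.8%, and gained 5.36% and 17.9% against 14.1%. The difference between the windows was not tested.

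**Figure D5:**
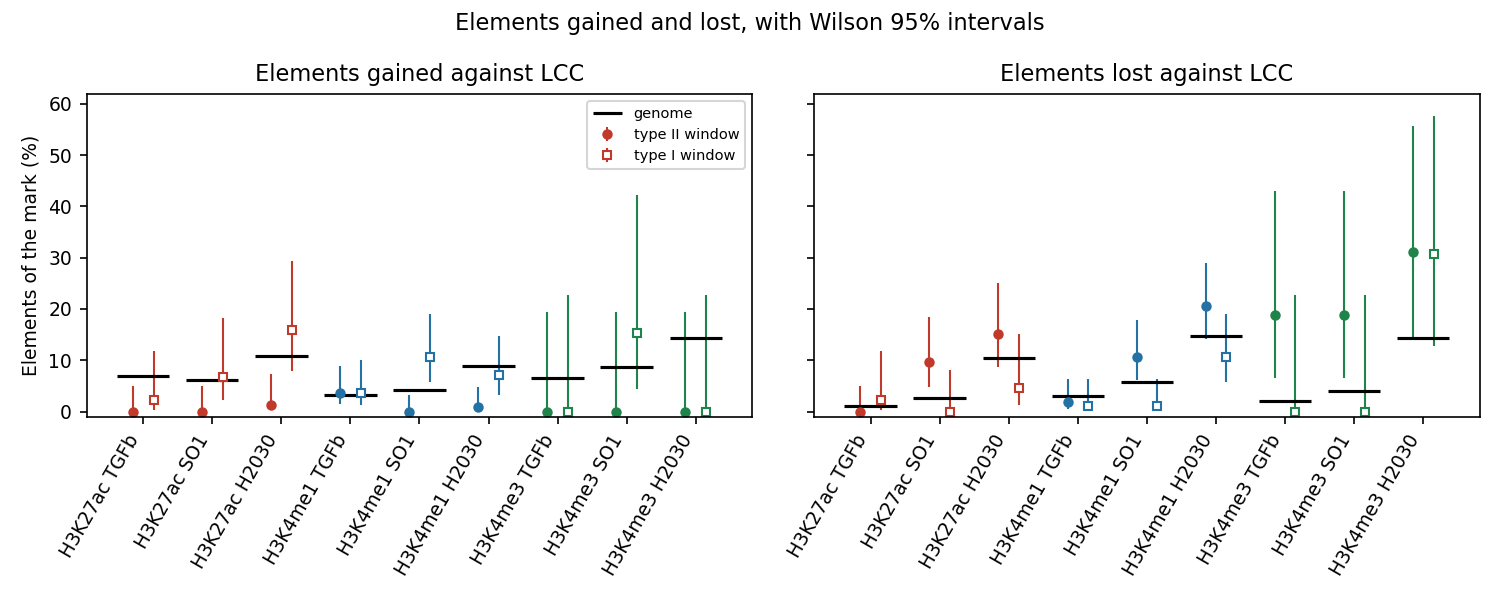
Elements gained (left) and lost (right) against LCC as a share of the elements of each window (y axis, %), with Wilson 95% intervals; the black line is the share over the genome. At the 10 kb distance drawn here, SO1 losses lie in the type II window, except 1 H3K4me1 element, and SO1 gains in the type I window.

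Of the 7 SO1 losses, 6 followed each other along the chromosome between 52887995 and 53251932 (364 kb), with no SO1 H3K27ac element of score 10 or more between them, a stretch chosen after its values were seen. H3K27ac there numbered 12 and 10 summits in the LCC replicates, 10 in TGFb and 1 each in SO1 and H2030. H3K4me1 numbered 21, 27, 6 and 3 in LCC, TGFb, SO1 and H2030, and H3K4me3 numbered 3, 1, 0 and 0. SO1 and H2030 thus had fewer H3K27ac and H3K4me1 summits there than LCC and TGFb, H3K4me3 was sparse in every group, and some H3K4me1 remained, with highest scores of 44.1 in SO1 and 15.3 in H2030.

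Within this stretch H3K27ac at chr12:53241522-53241580 scored 110 and 91.4 in the LCC replicates and 131 in TGFb, with no summit in SO1 or H2030. At chr12:53207669-53208837 it scored 37.2, 151 and 11.2, again with none in SO1 or H2030. At chr12:53194303-53195000 the LCC replicates scored 111 and 194 and TGFb 79.8, while SO1 scored 3.95 and H2030 8.39. Because of this weak SO1 summit the neighbour at chr12:53187974-53188904, with 118 and 104 in LCC, 36.3 in TGFb and none in SO1 or H2030, did not count as lost. The H3K4me1 summit beside it, chr12:53188883-53188888, scored 160 in LCC and 108 in TGFb and was likewise not seen in SO1 or H2030. By gene order this stretch lies before the KRT8 and KRT18 end, and its elements were not assigned to genes.

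In the type I window, several H3K27ac elements had higher scores in SO1 than in any other list. At chr17:39058110-39059748 the LCC replicates scored 33.2 and 31.3, TGFb 34.3, SO1 279 and H2030 32.6. At chr17:39560127-39561015, described above, SO1 scored 200. At chr17:39260420-39261365 it scored 103 against 17.1 in LCC replicate 2, 20.0 in TGFb and none in replicate 1 or H2030. At chr17:39620816-39621574 it scored 83.8 against 4.68, 4.59 and 2.18 in the LCC replicates and TGFb and no summit in H2030. The median H3K27ac score of the SO1 list, 30.1, was itself above those of LCC, 12.6 and 13.5, while its median in this window was 59.5 against 7.57 and 7.40. The strongest gained element was chr17:39536145-39536210, which scored 67.0 in SO1 and 88.9 in H2030 and had no summit in LCC or TGFb.

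By kept shares the SO1 means of both windows lay below that of the genome for H3K27ac. SO1 kept 37.6% ± 4.09 (SD, n = 2) of LCC H3K27ac summits in the type II window and 49.2% ± 8.25 in the type I window, against 56.2% ± 4.14 over the genome, and the replicate values of the type I window (55.0% and 43.3%) came close to those of the type II window (34.7% and 40.5%). For both windows it kept 41.1% ± 0.769, below the 62.3% and 59.7% that the LCC replicates shared. It kept 53.2% of H3K4me1 against 53.7% and 76.9% (57.9 to 89.0) of H3K4me3 against 85.0%.

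In H2030 fewer H3K4me3 elements were present than in LCC. Of 29 H3K4me3 elements 9 were lost (31.0%, 17.3 to 49.2), where 14.3% were lost over the genome, and 0 were gained (0 to 11.7), where 14.3% were gained. The lost elements scored 295, 160 and 47.8 in LCC, and the others 18.4 or less. With scores of at least 10, 28.6% of type II and 15.4% of type I elements were lost, against 13.5% over the genome. When H2030 had to lack a summit only in the element itself, 43.8% and 53.8% were lost against 20.8%. Of its 11 H3K4me3 summits in the windows 10 lay within 500 bp of an LCC summit (90.9%, 62.3 to 98.4) against 63.8% over the genome. H2030 thus had a smaller set of keratin-window promoter marks, placed at elements that the H2087 groups also had.

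For H3K27ac, 13 of 117 elements were lost in H2030 (11.1%) against 10.5% over the genome, and 8 were gained (6.84%) against 10.9%. For H3K4me1, 32 of 196 were lost (16.3%) against 14.8%, and 7 were gained (3.57%, 1.74 to 7.19) against 8.94%. The losses were thus near the genome share for these 2 marks. The gains of both marks depended on the distance. They were also counted with LCC required to lack a summit only in the element itself. For H3K27ac 23.3% of type II and 34.1% of type I elements were then gained, against 21.9% over the genome. For H3K4me1 25.9% and 23.8% were gained, against 25.8%. At the 10 kb distance, of the 13 H3K27ac losses 11 were in the type II window (15.1% of its elements) and 2 in the type I window (4.55%). Of the 8 H3K27ac gains 1 (1.37%) was in the type II and 7 (15.9%) in the type I window. The smaller share of losses in the type I window rests on LCC replicate 1: without it 13.3% were lost there and 16.4% in the type II window, against 18.6% over the genome. The type II losses included 9 in a row, by the same rule, between 52803981 and 53251932, a stretch chosen after its values were seen, where H2030 had 1 H3K27ac summit against 20 and 14 in the LCC replicates. H2030 kept 24.9% ± 5.76 of LCC H3K27ac summits against 34.8% ± 3.18 over the genome, 29.4% of H3K4me1 against 35.0%, and 38.5% (22.4 to 57.5) of H3K4me3 against 62.7%.

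The H3K27ac summits of the windows were split by the other marks of the same group within 1 kb. H3K4me3 accompanied 24.6% and 22.2% in the LCC replicates, 20.5% in TGFb, 35.7% in SO1 and 14.7% in H2030, against 39.1%, 32.3%, 32.3%, 39.1% and 35.3% over the genome. H3K4me1 without H3K4me3 accompanied 50.7%, 58.3%, 56.4%, 53.6% and 67.6%, against 48.3%, 52.8%, 55.8%, 51.4% and 46.0%. Neither mark accompanied 24.6%, 19.4%, 23.1%, 10.7% and 17.6%, against 12.6%, 14.8%, 11.9%, 9.53% and 18.8%. Over both windows together, the share with a promoter mark was below that of the genome in each of the 5 lists, and the gap was smallest in SO1. In H2030 39.5% of type II and 48.0% of type I H3K27ac summits scored at least 10, against 59.6% of the list. With scores of at least 10 the H2030 share with H3K4me3 was 34.5%, and no genome share was computed at that cut. By window, the SO1 share was 40.0% in the type II window, not below its genome share, and 30.8% in the type I window.

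Of the 117 H3K27ac elements, 18 (15.4%) were marked in every group, against 20.1% over the genome. A summit of both LCC replicates stood in 43 of the 117, 29 in the type II and 14 in the type I window. No genome share was computed for the counts among these 43. TGFb had a summit in 36 of these 43, SO1 in 28 and H2030 in 19, and 15 of them were marked in every group. Among those was chr12:52637628-52638306, with 148 and 281 in the LCC replicates, 265 in TGFb, 360 in SO1 and 183 in H2030. So was chr12:52585543-52585648, with 135, 222, 316, 338 and 360. Both lie in the KRT80 and KRT7 end of the window by gene order.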

How the data were processed

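The 3 histone marks were measured by ChIP-seq in 4 groups. The tools Bowtie2, SAMtools and deepTools and the build hg19 are named in the submitters' processing notes, and the peak caller is not given in the sources used here. A deposited list gives 1 bp summits with the authors' score, read as −log10 of the peak's p or q (lowest value 1.30107). Peak widths, read counts and depth are unknown. Only chromosomes 1 to 22 and X entered the counts over the genome.

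With Python 3.11.15 and NumPy 2.4.6, summits were compared within 500 bp, merged within 1 kb into elements, and called gained or lost at 10 kb. The calls were run on simulated lists of widely spaced sites, where each planted gain and loss was recovered. Both simulated LCC lists held the same sites, so this checks the code only. It does not measure the calls among dense summits or between replicates that differ. Where a motif was searched, the first RefSeq promoter of each gene was used. Named elements were the 5 with the highest LCC score per window and mark (for H3K27ac the lower replicate score), up to 3 gained and 3 lost per comparison, the top summit per library and dense 20 kb stretches; others were picked after their values were seen. The windows, members and gene lists were chosen with earlier results of these data known. No significance test was run, since every group set against LCC has 1 library per mark; LCC H3K27ac has 2 replicates. Alternatives were distances of 250 and 1000 bp, scores of at least 10, wider windows, lists of equal length and each LCC replicate left out.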

Additional observations from a re-analysis of the deposited data

How the results depend on the processing

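No paired analysis was possible because the labels share replicate numbers only between LCC H3K27ac and the LCC inputs, which were not analysed here. Of 283 values computed under an alternative, 190 stayed within the replicate spread or counting interval of the reported value (counts within 1.5 times) and 93 moved; the cause was not tested. Depth is unknown, so a missing weak summit and an absent mark cannot be told apart.

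Kept and found shares over the genome, and between the LCC replicates, were computed only at 500 bp with full lists. The shares that follow thus have no such value at the same setting. At 250 bp the kept share of LCC summits was 50.4% (H3K27ac TGFb), 35.4% (H3K27ac SO1), 53.2% (H3K4me1 TGFb) and 43.7% (H3K4me1 SO1). At 1000 bp it was 74.5%, 55.3% and 37.6% for H3K27ac in TGFb, SO1 and H2030, 82.5%, 65.1% and 38.9% for H3K4me1, and 84.6% for H3K4me3 in TGFb. With windows extended by 100 kb the H3K27ac share was 63.0%, 48.1% and 32.1% in TGFb, SO1 and H2030. With scores of at least 10 it was 62.7% in TGFb and 54.9% in SO1, and with lists of equal length 53.9% and 43.2%.

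The share of a group's summits found in LCC was, at 250 bp, 45.5% (H3K27ac TGFb), 44.6% (H3K27ac SO1), 46.9% (H3K4me1 TGFb), 54.5% (H3K4me1 SO1) and 25.2% (H3K4me1 H2030). At 1000 bp it was 61.5%, 60.7% and 37.5% for H3K27ac in TGFb, SO1 and H2030, 74.1%, 77.2% and 47.7% for H3K4me1, and 84.0% for H3K4me3 in TGFb. For H3K27ac it was 55.9% in TGFb with extended windows, 58.5% in TGFb with lists of equal length and 37.9% in H2030 with scores of at least 10.

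When the lacking side needed no summit only in the element itself, H3K27ac elements gained were 14.5%, 12% and 27.4% in TGFb, SO1 and H2030 and those lost 5.98%, 12.8% and 20.5%. Over the genome 16.6%, 12.5% and 21.9% were gained and 3.71%, 6.24% and 16.3% lost. H3K4me1 elements gained were then 16.3%, 10.7% and 25.0% and those lost 10.7%, 20.9% and 36.2%. The genome shares were 13.7%, 14.1% and 25.8% gained and 13.6%, 18.8% and 30.4% lost. With 5 kb, H2030 gained 13.7% of H3K27ac and 9.18% of H3K4me1 elements, against 14.7% and 13.7% over the genome. H3K4me1 losses were then 22.4% in H2030 and 11.2% in SO1, against 19.9% and 9.39%. With scores of at least 10, TGFb gained 5.41% of H3K27ac elements and H2030 lost 24.8% of H3K4me1, against 11.6% and 20.3% over the genome. Leaving out 1 LCC replicate gave 0.893% to 6.09% of H3K27ac elements gained in TGFb, against 8.08% to 13.5% over the genome.

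At 500 bp, H3K27ac summits with H3K4me1 only were 31.9% and 36.1% (LCC replicates), 39.7% (TGFb), 37.5% (SO1) and 48.5% (H2030), and those with neither mark 46.4%, 44.4%, 44.9%, 33.9% and 39.7%. At 2500 bp those with neither were 10.1%, 5.56%, 5.13% (TGFb) and 8.82% (H2030), those with H3K4me3 36.2% in LCC replicate 1, and those with H3K4me1 only 70.5% in TGFb. With scores of at least 10, H2030 had 34.5% with H3K4me3 and 44.8% with H3K4me1 only.

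With scores of at least 10, type II H3K27ac summits numbered 25 (LCC replicate 1), 32 (TGFb) and 17 (H2030), and H3K4me1 summits 55 (TGFb) and 28 (H2030). Type I H3K27ac summits then numbered 9 and 14 (LCC replicates), 16 (TGFb) and 12 (H2030), H3K4me1 summits 30, 33 and 24 (LCC, TGFb, H2030), and H3K4me3 summits 7 (TGFb). With windows extended by 100 kb, the type II window held 75 (SO1) and 102 (H2030) H3K4me1 and 20 (SO1) and 15 (H2030) H3K4me3 summits. The type I window then held 39 H3K27ac summits in H2030, 84 and 67 H3K4me1 summits in LCC and H2030, and 18, 20 and 11 H3K4me3 summits in TGFb, SO1 and H2030.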
